A study of Gallus gallus with 6 samples.

Results

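A group of 9 genes of endoderm and yolk sac was followed by name through RNA of whole embryos of the chicken (Gallus gallus), all at stage 10 of Hamburger and Hamilton. They encode 4 secreted proteins (APOA1, APOB, TTR and RBP4), 3 transcription factors (SOX17, HNF4A and FOXA1) and the 2 subunits of an uptake receptor (CUBN and AMN). Each was matched by its chicken RefSeq symbol to 1 gene ID, and all 9 were found among the 24098 genes of the files. The 3 control embryo libraries were compared with 3 libraries of embryos treated with zinc oxide (ZnO) nanoparticles, all labelled as whole embryos of the same stage. The sources used here give no strain, dose, route or length of exposure, and do not say whether a library holds 1 embryo or a pool. The stage labels carry windows of hours that open at 34 in each library and close at 39, 40 and 41 in the controls in order of replicate number and at 42, 43 and 44 in the treated libraries, so that age, if the windows record it, and treatment cannot be told apart. Nothing in the labels says that the libraries came from separate embryos. The p-values here weigh a group difference only against the spread of these samples within groups, which may have a technical part.

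In the chick, endoderm spreads over the yolk as the inner epithelium of the yolk sac, which takes up yolk, digests it and hands lipid, vitamins and protein to the embryo before a liver exists. This epithelium secretes apolipoproteins and the carriers of thyroid hormone and retinol, products that the liver makes later. Inside the embryo, endoderm lines the early foregut. How much of the surrounding yolk sac is collected with an embryo is set at dissection, and the labels do not describe the cut. In whole-embryo RNA, a difference in the number of yolk sac cells cannot be told apart from a difference in RNA per cell.

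The files hold FPKM, reads per gene divided by gene length and library depth. Depth, computed from the steps in the values, was 18208501 to 19843561 reads per library. Reads recovered for genes made up 99.52 to 99.56% of it, so this depth is close to the reads assigned to genes and not a count of all reads sequenced. Among the 13311 genes whose mean reached 1 FPKM, the median gene had 579 to 649 reads per library. The sum of all FPKM was 480047 in ZnO 1 and 531480 to 559992 in the other libraries.

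Among the secreted members, APOA1 and TTR were abundant in every library, APOB was moderate and RBP4 was near 0, and the level of the first 3 varied more within each group than between the groups. APOA1 (gene ID 396536), the main protein of high-density lipoprotein, had the highest mean FPKM of all genes in the files. It stood at 5144, 7017 and 3019 FPKM in control 1, 2 and 3, and at 6413, 2761 and 4610.4 FPKM in ZnO 1, 2 and 3. Control 2 and ZnO 1 were high, control 3 and ZnO 2 were low, and the groups overlapped. The mean was 5060.3 ± 2000.4 FPKM for the control group and 4595 ± 1826 FPKM for the treated group (SD, n = 3). TTR (gene ID 396277), transthyretin, a carrier of thyroid hormone that also binds the retinol carrier RBP4, stood at 1425, 2381 and 919.5 FPKM in control 1, 2 and 3, and at 1560.4, 667 and 1071 FPKM in ZnO 1, 2 and 3. Its order of libraries from high to low was that of APOA1, namely control 2, ZnO 1, control 1, ZnO 3, control 3 and ZnO 2. The highest library held 2.54 times the APOA1 level of the lowest and 3.57 times its TTR level. Among controls alone the same ratios were 2.32 and 2.59.

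APOB (gene ID 396535), the large scaffold protein of the lipoproteins that carry yolk lipid, was far lower per length and had its highest value in another library. It stood at 22.1, 36.7 and 13.7 FPKM in control 1, 2 and 3, and at 38.4, 14.7 and 44.7 FPKM in ZnO 1, 2 and 3. The highest library was ZnO 3, control 3 and ZnO 2 were again the 2 lowest, and the groups overlapped.

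The symbol RBP4, read literally, pointed to a gene that was almost silent in these embryos. The gene now named RBP4 (gene ID 396454, with the synonym RBP4B) stood at 0.134, 0.671 and 0.0616 FPKM in control 1, 2 and 3, and at 1.00, 0.194 and 0.395 FPKM in ZnO 1, 2 and 3. These values rest on 1 to 15 reads per library, too few to compare groups, and the gene was the 1 member of 9 left out by the filter on low values. A second gene, RBP4A (gene ID 396166), carries RBP4 as a synonym and was looked up after the low values had been seen. RBP4A stood at 594, 964 and 368 FPKM in control 1, 2 and 3, and at 726, 315 and 478 FPKM in ZnO 1, 2 and 3. It followed the library order of APOA1 and TTR exactly, and the groups overlapped. How reads that both RBP4 genes could share were counted is not stated, and both levels are uncertain to that extent.

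**Figure D1:**
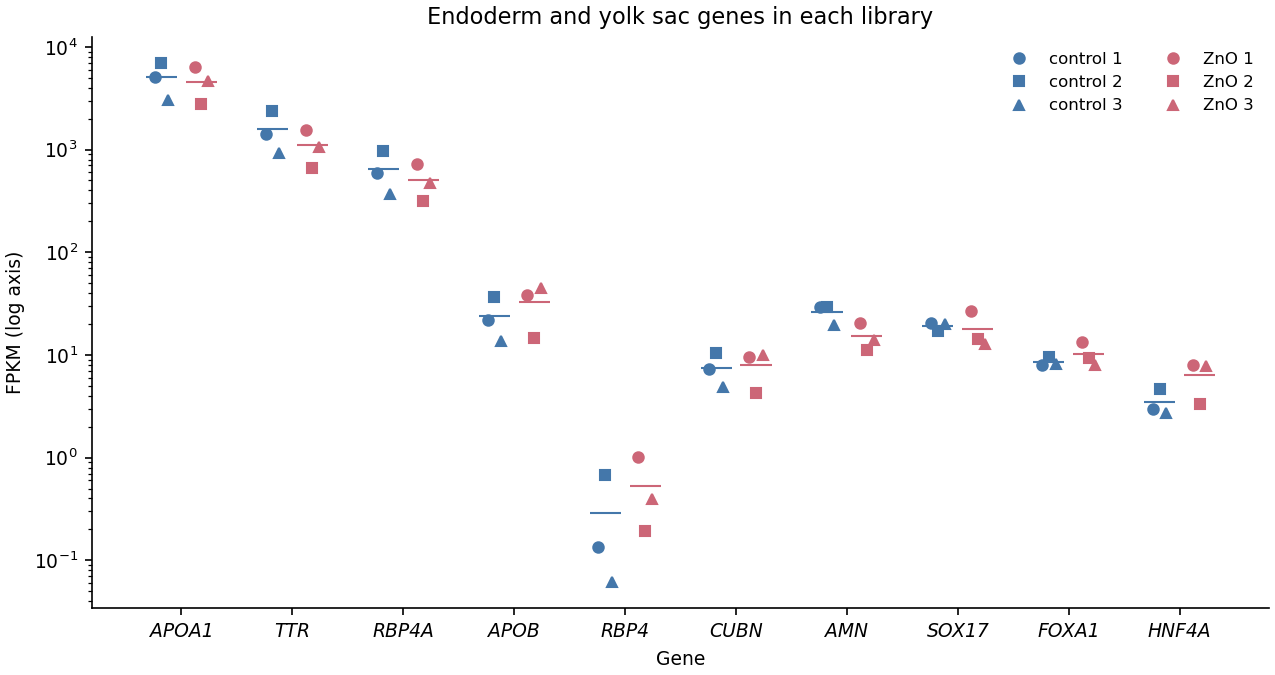
FPKM of the 9 members and of RBP4A in each library on a log axis, with controls in blue, ZnO libraries in red, 1 marker shape per replicate number and a short line at each group mean. APOA1 lies between 2761 and 7017 FPKM, RBP4 at 1.00 FPKM or less, and the groups overlap for every gene shown.

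As a share of the depth of each library, the 4 secreted members took 0.625% (95% Wilson interval 0.621 to 0.629%), 0.894% (0.890 to 0.899%) and 0.374% (0.371 to 0.377%) in control 1, 2 and 3. In ZnO 1, 2 and 3 they took 0.779% (0.775 to 0.783%), 0.332% (0.330 to 0.335%) and 0.580% (0.577 to 0.584%). The intervals cover counting error only, and no 2 of them overlap. The share differed 2.69-fold between control 2 and ZnO 2, 2.39-fold among controls and 2.34-fold among treated libraries, while the group means were 0.631 ± 0.260% and 0.564 ± 0.224% (SD, n = 3). The summed FPKM of the 4 genes in treated embryos was 0.860 times that of controls. It was 1.09 times without control 2 and 1.03 times without ZnO 2, and 0.715 times without control 3 and 0.688 times without ZnO 1. Judged by these genes, control 2 and ZnO 1 held the most yolk sac endoderm RNA and control 3 and ZnO 2 the least, with libraries of both groups at either end. The deviations of libraries described at the end correlated at 0.58 for control 2 with ZnO 1 and at 0.42 for control 3 with ZnO 2. Whether this order is particular to yolk sac genes was not tested.

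The 2 receptor genes differed in their order of libraries. Cubilin (CUBN) binds apolipoprotein A1 and vitamin-binding proteins at the apical surface, and amnionless (AMN) anchors it in the membrane and brings it there. CUBN (gene ID 420523) stood at 7.25, 10.4 and 4.91 FPKM in control 1, 2 and 3, and at 9.60, 4.28 and 10.1 FPKM in ZnO 1, 2 and 3. Control 3 and ZnO 2 were the 2 lowest, as for APOA1, TTR and APOB, and the groups overlapped. AMN (gene ID 423472) stood at 29.3, 29.3 and 19.5 FPKM in control 1, 2 and 3, and at 20.6, 11.2 and 14.0 FPKM in ZnO 1, 2 and 3. Only control 3 and ZnO 1 kept the groups from separating. AMN was the member with the smallest p, at a mean of 26.0 ± 5.69 FPKM for the control group and 15.3 ± 4.82 FPKM for the treated group (SD, n = 3), 0.586 times the control level.

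The transcription factors were present at low to moderate levels and did not share one order of libraries. HNF4A (gene ID 419198), a nuclear receptor that drives apolipoprotein and other plasma protein genes in endoderm and liver, stood at 2.98, 4.66 and 2.71 FPKM in control 1, 2 and 3, and at 8.03, 3.33 and 7.72 FPKM in ZnO 1, 2 and 3. Values in ZnO 1 and ZnO 3 were above every control, but ZnO 2 lay among the controls. HNF4A had 163 to 444 reads per library. FOXA1 (gene ID 101752179), a pioneer factor of endoderm that midline cells also express, stood at 8.06, 9.46 and 8.22 FPKM in control 1, 2 and 3, and at 13.4, 9.31 and 7.93 FPKM in ZnO 1, 2 and 3. The high library was ZnO 1, and the other 5 libraries lay close together. SOX17 (gene ID 428534), a specifier of definitive endoderm that endothelial cells also express, stood at 20.7, 17.0 and 20.02 FPKM in control 1, 2 and 3, and at 26.7, 14.2 and 12.7 FPKM in ZnO 1, 2 and 3. Its controls lay together, with treated libraries on both sides of them.

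No member passed the test between treated and control embryos. In limma on log2(FPKM + 1), at a threshold of 0.05 on p adjusted across all genes by Benjamini-Hochberg, 0 of the 8 members tested passed, beside 0 of all 13311 genes (0%, lowest adjusted p = 0.606). At an unadjusted p under 0.05 there was 1 member, AMN, against 5.66% of all genes tested. The log2 fold change of AMN (on the log2(FPKM + 1) scale, positive where treated embryos were higher) was -0.75 ± 0.25 SE, with a 95% interval of -1.32 to -0.18 (unadjusted p = 0.0168, adjusted p = 0.827 in limma). That of HNF4A was 0.68 ± 0.31 SE with an interval of -0.03 to 1.38 (adjusted p = 0.895 in limma). For TTR the log2 fold change was -0.49 with an interval of -1.45 to 0.46, and for APOB it was 0.38 with an interval of -0.67 to 1.43. The intervals were -1.07 to 0.79 for APOA1, -0.72 to 0.82 for CUBN, -0.78 to 0.43 for SOX17 and -0.25 to 0.65 for FOXA1, all including 0. These widths leave room for sizeable differences in either direction.

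Of the 8 members tested, 4 had a higher and 4 a lower mean in treated embryos, with a median log2 fold change of -0.04, beside 43.9% higher, 56.1% lower and a median of -0.03 over all genes tested. Groups did not overlap for 0 of these members and for 11.5% of all genes tested (5.6% with all treated libraries higher and 5.89% with all lower). The spread within groups was wider than usual for the secreted members, with pooled SDs of log2(FPKM + 1) of 0.61 for APOA1, 0.65 for TTR and 0.76 for APOB, against a median of 0.23 over all genes tested. It was also above this median for CUBN (0.54), HNF4A (0.48), SOX17 (0.40) and AMN (0.38), and was 0.26 for FOXA1.

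**Figure D2:**
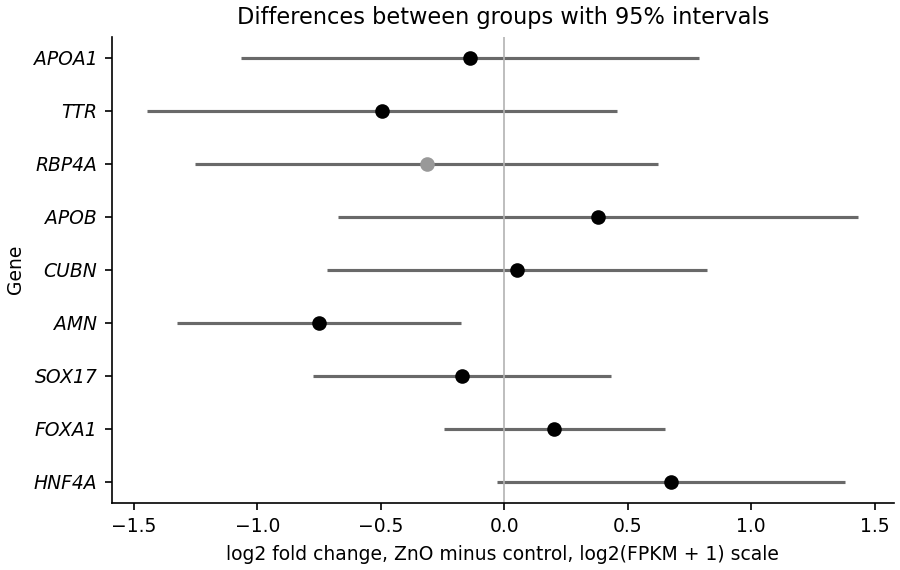
Differences of group means of log2(FPKM + 1), positive where treated embryos were higher, for the 8 members tested (black) and RBP4A (grey), with 95% intervals from limma. The interval of AMN (-1.32 to -0.18) is the one that excludes 0 before adjustment, and the other 8 include it.

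The other genes of yolk sac function were read from lists of named genes. The list of plasma proteins secreted by yolk sac endoderm and liver had 27 genes tested of 32 matched, 3 of the 27 being members. Control 3 or ZnO 2 was the lowest library for 26 of the 27, against 24.6% of all genes tested, and control 2 or ZnO 1 was the highest for 24 of the 27, against 39.7%. These libraries were picked from the values of APOA1, TTR and APOB. Those 3 members are counted among the 27, and their part in both counts was known beforehand. APOC3, an apolipoprotein that slows the clearance of triglyceride-rich particles, stood at 769.6, 1118 and 595 FPKM in control 1, 2 and 3, and at 724, 500.2 and 849 FPKM in ZnO 1, 2 and 3. TF, the iron carrier transferrin, stood at 333, 461 and 208 FPKM in control 1, 2 and 3, and at 586, 195 and 343 FPKM in ZnO 1, 2 and 3. Both genes were low in ZnO 2, and both had a control and a treated library among their 2 highest. The list also held genes near 0, among them AHSG, listed at 0 in 5 libraries, and ALB, serum albumin, at 0.559 to 1.39 FPKM.

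In this list 13 genes had a higher and 14 a lower mean in treated embryos, with a median log2 fold change of -0.02, and 0 passed. The groups did not overlap for 1 gene, all treated libraries being higher, where 5.6% of all genes tested did so. That gene was AFP, alpha-fetoprotein, a classical marker of mammalian visceral endoderm. It stood at 1.08, 2.14 and 0.542 FPKM in control 1, 2 and 3, and at 4.90, 2.34 and 3.02 FPKM in ZnO 1, 2 and 3, with a log2 fold change of 0.99 (adjusted p = 0.804 in limma). Control 2 and ZnO 2 were nearly level.

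Genes of uptake and digestion followed the secreted genes in part. Of 21 tested, control 3 or ZnO 2 was lowest for 14, 10 had a higher and 11 a lower mean in treated embryos, and 0 passed (median log2 fold change -0.01). LRP2, megalin, the large receptor that works beside cubilin, stood at 11.7, 12.8 and 9.82 FPKM in control 1, 2 and 3, and at 21.5, 12.9 and 21.5 FPKM in ZnO 1, 2 and 3. All treated libraries were above all controls, though ZnO 2 only just, and the log2 fold change was 0.63 (adjusted p = 0.827 in limma). CTSD, the lysosomal protease cathepsin D, stood at 35.8, 23.7 and 28.4 FPKM in control 1, 2 and 3, and at 48.2, 41.1 and 52.5 FPKM in ZnO 1, 2 and 3. Its groups did not overlap either (log2 fold change 0.68, adjusted p = 0.801 in limma). These were the 2 of 21 genes higher in every treated library, beside 5.6% of all genes tested.

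Of 15 genes of lipoprotein assembly and lipid transport, 9 had a higher and 6 a lower mean in treated embryos and 0 passed (median log2 fold change 0.05). SOAT1, which esterifies cholesterol, stood at 11.1, 11.4 and 7.75 FPKM in control 1, 2 and 3, and at 27.1, 12.1 and 17.8 FPKM in ZnO 1, 2 and 3. ABCA1, which loads lipid onto apolipoprotein A1, stood at 1.31, 1.10 and 0.884 FPKM in control 1, 2 and 3, and at 1.76, 1.72 and 3.58 FPKM in ZnO 1, 2 and 3. Both were higher in every treated library, as was ACSL1, which activates fatty acids, and none of the 3 passed (adjusted p = 0.827, 0.861 and 0.881 in limma). All treated libraries were higher for 3 of the 15 genes, beside 5.6% of all genes tested. Of 6 retinoid transport genes tested, 3 had a higher and 3 a lower mean, and 0 passed. STRA6, the receptor that takes up retinol from RBP4, averaged 79.4 ± 24.0 FPKM in the control group and 85.1 ± 33.1 FPKM in the treated group (SD, n = 3). Of 15 brush border and epithelial genes, 10 had a higher and 5 a lower mean, and 0 passed.

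The summed FPKM of endoderm transcription factors varied less than that of plasma proteins, and in another order. The 20 matched factors, 3 members included, summed to 407 to 443 FPKM, a 1.09-fold range. The plasma protein list summed to 4674 to 12218 FPKM, a 2.61-fold range. Single factors differed more than their sum, for example 2.96-fold for HNF4A, 2.25-fold for CDX2, 1.36-fold for GATA5 and 1.27-fold for HHEX. The median over all genes tested was 1.64-fold. GATA5, HHEX and CDX2 had the highest means of the list (127, 75.2 and 62.5 FPKM), and CDX2 had the lowest r (-0.66) with the yolk sac level described below. The narrow range of the sum does not by itself show a steady endoderm content. Control 3 or ZnO 2 was lowest for 1 of the 15 tested. GATA5, a factor of endoderm and heart, averaged 139 ± 6.22 FPKM in the control group and 116 ± 9.03 FPKM in the treated group (SD, n = 3), lower in every treated library (adjusted p = 0.943 in limma). Of the 15, 10 had a higher and 5 a lower mean, and 0 passed.

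Tissues that could share members' transcripts, or that lie beside the yolk sac endoderm, differed in how far they followed the secreted members. Yolk sac blood, the other main product of the yolk sac, was highest in ZnO 3 for 11 of 12 genes tested and lowest in ZnO 1 for 8 of 12. Shares over all genes tested for these single libraries are not given here, so the counts are a description only. ALAS1, reached through the synonym ALAS2, is among the 12. Its 14 matched genes summed to 1449 to 1960.1 FPKM in controls and 979 to 3127 FPKM in treated embryos. HBZ, an embryonic alpha-type globin, stood at 498, 359.9 and 420.2 FPKM in control 1, 2 and 3, and at 186, 371 and 826 FPKM in ZnO 1, 2 and 3. The library high in the secreted endoderm genes, ZnO 1, was thus the lowest library in globin. The list drawn up for extraembryonic ectoderm and amnion summed to 2238 to 2804 FPKM in controls and 1569 to 2530.4 FPKM in treated embryos. This sum was lowest in ZnO 1 and highest in control 3. KRT7 and HAND1 had the highest means in the list (1185 and 651 FPKM). Its genes are not confined to these tissues, so the sum is no measure of tissue around the embryo. Of its 10 genes, 5 had a higher and 5 a lower mean in treated embryos, 0 passed, and 2 were lower in every treated library beside 5.89% of all genes tested. These were HAND1, a regulator of lateral and extraembryonic mesoderm, at 758 ± 119.8 and 545 ± 156 FPKM (SD, n = 3), and the smooth muscle actin gene ACTA2, at 284 ± 31.4 and 204 ± 41.03 FPKM (log2 fold changes -0.51 and -0.49, adjusted p = 0.940 and 0.869 in limma). For 8 of the 10, Pearson's r with the yolk sac level described below over the 6 libraries was under 0. So it was for 6967 of all 13303 genes tested that are not members. Among other lists it was under 0 for 9 of 12 blood genes and 9 of 10 neural tube genes, but for 0 of 10 endothelial genes. It was above 0.5 for 5 of 10 endothelial and 3 of 9 notochord and floor plate genes, against 25.7% of all genes tested that are not members. For blood it was above 0.5 for 1 of 12 genes, and for extraembryonic ectoderm and amnion for 1 of 10. The endothelial list, which holds SOX17, summed to 342 to 407 FPKM in controls and 313 to 475 FPKM in treated embryos. Control 2 or ZnO 1 was highest for 8 of its 11 genes, against 39.7% of all genes tested. In all 8 it was ZnO 1, the library where SOX17 was highest. The notochord and floor plate list, cells that can express FOXA1, summed to 159 to 239 FPKM in controls and 161 to 253 FPKM in treated embryos. Its highest sum was in ZnO 1, where FOXA1 was also highest, while FOXA2 was highest in ZnO 2. Of its 9 genes tested, 2 were higher in every treated library, beside 5.6% of all genes tested. These were TBXT and NTN1, and neither passed (adjusted p = 0.943 and 0.801 in limma). All 11 endothelial and all 10 notochord and floor plate genes had a value above 0 in every library, and their part in the SOX17 and FOXA1 levels was not tested.

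In lists of the embryo proper the means lay mostly on one side, and whether this differs from the secreted members was not tested. Of 10 neural tube genes, 8 had a higher mean in treated embryos (median log2 fold change 0.63), against 43.9% of all genes tested. Of 9 somite genes tested, 8 had a lower mean (median -0.54), and of 9 heart genes 8 had a lower mean (median -0.39), against 56.1%. No gene of the 3 lists passed. Unadjusted p was under 0.05 in limma for 7 neural tube, 3 somite and 3 heart genes, against 5.66% of all genes tested. Every treated library was higher for 2 neural tube genes, beside 5.6% of all genes tested. All were lower for 4 somite and 2 heart genes, beside 5.89%. The summed neural list was 283 to 320.1 FPKM in controls and 308 to 413 FPKM in treated embryos, and the summed heart list 727 to 1016 and 558 to 785 FPKM. Neither followed the order of the secreted members in full. Control 2 or ZnO 1 was highest for 7 of 9 heart genes, against 39.7% of all genes tested, but ZnO 3 was lowest for 6 of 9. Pearson's r with the yolk sac level described below was above 0.5 for 4 of 9 heart genes, against 25.7% of all genes tested that are not members. It was above 0.5 for 1 of 10 neural tube and 0 of 9 somite genes.

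**Figure D3:**
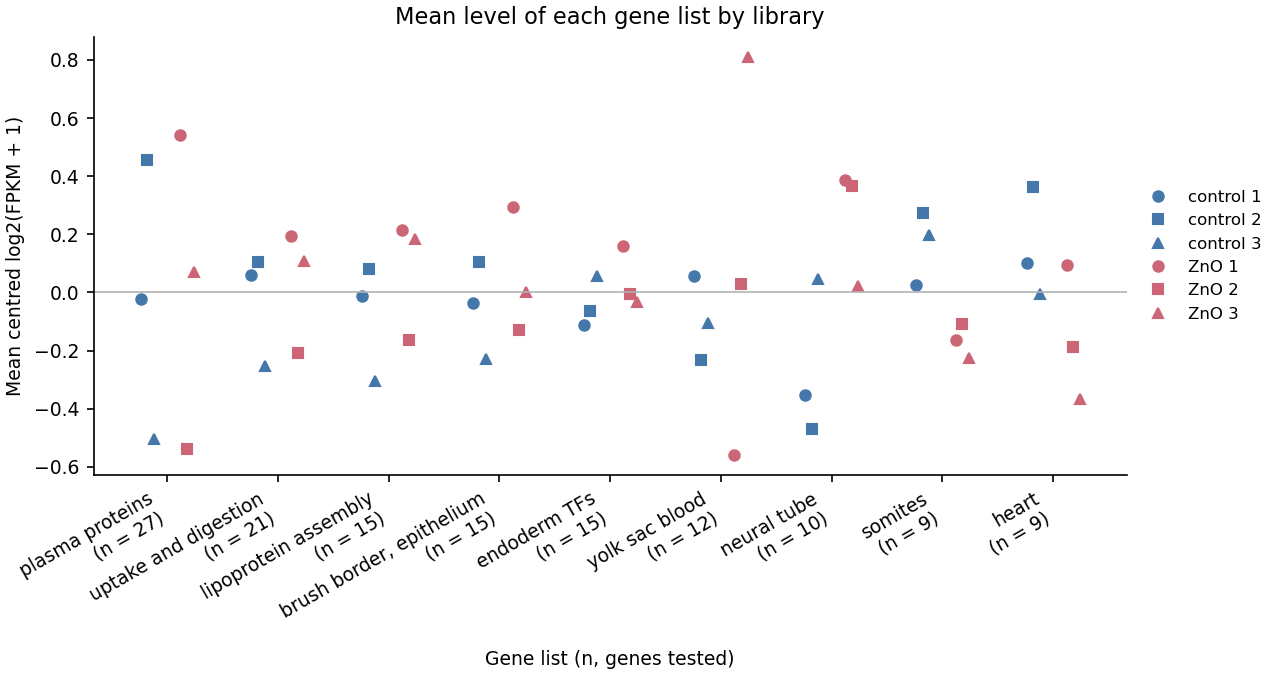
Mean of log2(FPKM + 1), centred on each gene's mean over the 6 libraries, for 9 gene lists, with controls in blue and ZnO libraries in red. The plasma protein list runs from -0.54 in ZnO 2 to 0.54 in ZnO 1 with controls from -0.50 to 0.46, while the yolk sac blood list is lowest in ZnO 1 (-0.56) and highest in ZnO 3 (0.81).

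To describe which other genes followed the secreted members, the mean centred log2(FPKM + 1) of APOA1, APOB, TTR and RBP4 was taken as a yolk sac level for each library. It was -0.03, 0.59 and -0.56 in control 1, 2 and 3, and 0.49, -0.64 and 0.15 in ZnO 1, 2 and 3. Among genes whose mean reached 5 FPKM, members left out, the 8 with the highest Pearson r with this level over the 6 libraries were APOA5 (r = 0.993), SERPINA10 (0.991), FAM110D (0.984), AMBP (0.983), GGT2 (0.979), PSAP (0.973), GJB6 (0.973) and RNF139 (0.971). APOA5 and AMBP belong to the plasma protein list. Over so few libraries r is a description only. It was above 0.9 for 122 and below -0.9 for 120 of 9565 genes with this mean. Among genes with a mean of 1 FPKM or more it was above 0.9 for 13 of 24 plasma protein genes that are not members and for 175 of all 13303 genes tested that are not members. Among members outside the level it was 0.96 for CUBN, 0.70 for HNF4A, 0.56 for AMN, 0.46 for FOXA1 and 0.28 for SOX17. With RBP4A in place of RBP4, 4 of the 8 genes remained among the closest 8.

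The group means of the yolk sac level, 0.00 ± 0.58 in controls and 0.00 ± 0.58 in treated embryos (SD, n = 3), differed by far less than their spread. With RBP4A in place of RBP4, which has few reads, the means were 0.07 ± 0.67 and -0.07 ± 0.64. With this level as a covariate, chosen after the data were seen, 0 of 13311 genes passed in limma (0%), with 1027 genes (7.72%) at an unadjusted p under 0.05 against 754 without it. Under the covariate the log2 fold changes of AMN (-0.75) and HNF4A (0.68) were as before, with adjusted p of 0.356 and 0.416 in limma. Because the level hardly differed between the groups (ZnO minus control -0.0025), this covariate could hardly move a fold change. The unchanged values therefore say nothing on a part of yolk sac content in them.

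Members were also set against each other within a library, as ratios. The pairs were chosen after their values were seen, and 6 of 8 ratios computed did not overlap between groups. The ratio of TTR to APOA1 was 0.277, 0.339 and 0.305 in control 1, 2 and 3, and 0.243, 0.242 and 0.232 in ZnO 1, 2 and 3. All treated libraries were lower, and lay close together although their APOA1 levels differed 2.32-fold. The ratio of RBP4A to TTR, whose proteins circulate as a complex, was 0.417, 0.405 and 0.400 in control 1, 2 and 3, and 0.465, 0.472 and 0.446 in ZnO 1, 2 and 3. The ratio of AMN to CUBN was 4.04, 2.83 and 3.96 in control 1, 2 and 3, and 2.14, 2.62 and 1.39 in ZnO 1, 2 and 3, lower in every treated library.

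The ratio of APOB to APOA1 was 0.00469 ± 0.000489 in controls and 0.00700 ± 0.00235 in treated embryos (SD, n = 3), and that of HNF4A to APOA1 was 0.000714 ± 0.000166 and 0.00138 ± 0.000257, both higher in every treated library. The ratio of AMN to APOA1 was lower in every treated library, while those of CUBN to APOA1 and SOX17 to FOXA1 overlapped. Because the pairs were picked on these values, no test is given for them. Of all genes tested, 0.541% had a ratio to APOA1 that was lower in every treated library and 1.25% one that was higher, and for ratios to CUBN these shares were 0.736% and 0.616%. These shares are no yardstick for the pairs above, which were picked on their values and reuse the same genes. Nor are they one for genes such as TTR that followed the library order of APOA1.

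**Figure D4:**
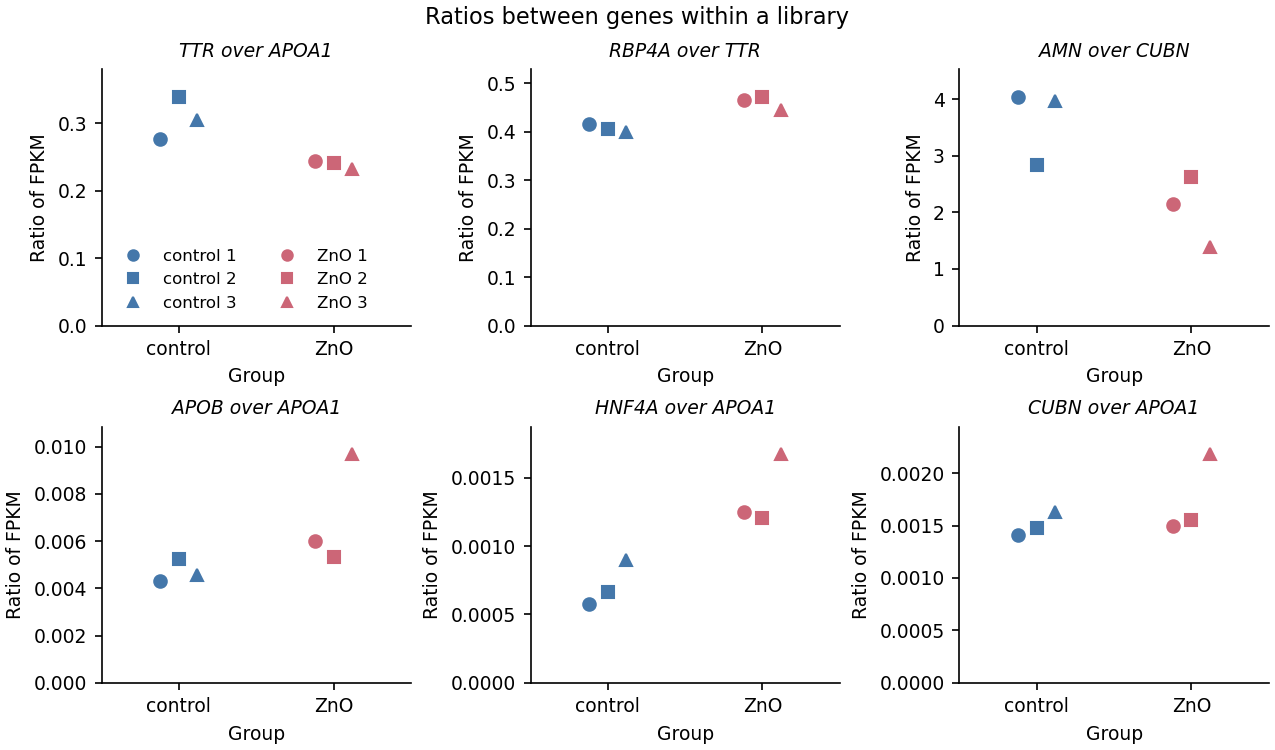
Ratios of FPKM between pairs of genes within each library, with controls in blue, ZnO libraries in red, 1 marker shape per replicate number and every axis starting at 0. TTR over APOA1 lies at 0.277 to 0.339 in controls and 0.232 to 0.243 in ZnO libraries, and AMN over CUBN at 2.83 to 4.04 and 1.39 to 2.62, while CUBN over APOA1 overlaps.

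The genes were also set against the plasma protein list as a whole. Each gene's log2 level was taken relative to the mean level of 28 plasma protein genes of its library, RBP4A included, and 3 of the 28 were higher and 4 lower in every treated library. The shares over all genes tested, 0.616% and 0.947%, are no yardstick for the 28, which make up the mean they are measured against, so that some must lie above it and some below. The 4 lower were TTR (ZnO minus control -0.53 log2), SERPIND1 (-0.40), FGB (-0.40) and RBP4A (-0.35), and the 3 higher were AFP (0.96), SPIA1 (0.29) and FGA (0.27). FGA and FGB encode chains of fibrinogen, and FGG, which encodes its other chain, overlapped between groups (-0.07). Outside the list, AMN was lower (-0.78) and HNF4A higher (0.64) in every treated library on this measure, while CUBN (0.02), SOX17 (-0.21) and FOXA1 (0.17) overlapped. The shares above are no yardstick for AMN and HNF4A either, which already had the smallest unadjusted p of the members in limma. The plasma protein level itself was -0.02 ± 0.49 in controls and 0.02 ± 0.54 in treated embryos (SD, n = 3).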

How the data were processed

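Whole-embryo RNA was measured in 3 control and 3 ZnO libraries. Per the labels' protocols, Trizol RNA (1 µg) was made into Illumina TruSeq libraries and read as pairs of 125 or 150 bp. The submitters' processing notes name Bowtie2 2.2.3, TopHat2 2.0.12 and HTSeq 0.6.1, and as genome build mm10, a mouse build. Strand use, annotation and parameters are not given in the sources used here. The authors' deposited values carry no unit in the file headers and behave as FPKM: with the depths solved from their steps, each of the 13311 genes tested came out at whole reads to within 0.005 (lengths of 20 to 60000 bp searched). Of 24098 gene IDs, 19704 (81.8%) matched the RefSeq table of assembly GRCg7b, which was used for symbols only.

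The fit took genes whose mean reached 1 FPKM and used limma 3.58.1 under R 4.3.3 (mean-variance trend, two-sided, Benjamini-Hochberg over all genes, threshold 0.05) on log2(FPKM + 1), a scale that understates changes of low genes. The recovery of reads and the fit were each run on simulated data in which genes varied independently, so genes that shift together were not covered. Outcomes of these runs are not given here. The members, and 13 lists of 208 entries (187 matched by symbol, 5 by synonym), were chosen with earlier results of these data known. List genes named are those with the 4 smallest p or 4 highest means, and any others (APOA5, AMBP, ALB, AHSG, SERPIND1, FGA, FGB, FGG, SPIA1) were chosen after their values were seen. A result under this rule is not reported here. Alternatives were another pseudocount, other filters and scalings, limma-voom on the recovered reads, a replicate block and leaving out each library. No sequences are shown, since none were used here.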

Additional observations from a re-analysis of the deposited data

How the results depend on the processing

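No member passed the threshold under any of 14 alternatives to the fit, and 0 genes of any list passed (the 4 members that make up the yolk sac level were not counted where it was the covariate). Over all genes, leaving out 1 library gave 0 to 4 genes past the threshold, the 4 without ZnO 1, and every other alternative gave 0. Genes at an unadjusted p under 0.05 numbered 389 without control 1, 413 without control 2 and 1944 without ZnO 1, against 754. Of 109 fold changes of members by alternative, 103 kept their direction and 6 reversed, all on leaving out 1 library. The log2 fold change ranged over those fits from -0.47 to 0.19 for APOA1, from -0.18 to 0.40 for CUBN and from -0.49 to 0.024 for SOX17, from -0.83 to -0.14 for TTR, from 0.045 to 0.86 for APOB and from 0.0059 to 0.35 for FOXA1. It ranged from -0.98 to -0.56 for AMN and from 0.49 to 1.02 for HNF4A. The adjusted p of AMN lay between 0.195 (without ZnO 1) and 1.00 over the alternatives in limma. The median over members ranged from -0.26 (without ZnO 1) to 0.22 (without ZnO 2) on leaving out 1 library, turned to 0.05 when RBP4 entered without a filter and was -0.14 with RBP4A in its place.

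Deviations of same-numbered libraries had correlations of -0.03, -0.37 and 0.41 for numbers 1, 2 and 3. Those of differently numbered libraries ranged from -0.56 (control 3 with ZnO 1) to 0.58 (control 2 with ZnO 1), with 0.42 for control 3 with ZnO 2. With 3 libraries a group, these values cannot decide whether the numbers mark pairs. With the replicate block 0 genes passed, 758 were at an unadjusted p under 0.05, and no member passed. Depth limits RBP4, at 1 to 15 reads, and 3 libraries a group limit the rest.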

Other observations

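The 8 genes closest to the yolk sac level include some outside every list used here. SERPINA10, a liver-type protease inhibitor gene, stood at 18.5, 28.3 and 11.1 FPKM in control 1, 2 and 3, and at 23.3, 10.8 and 19.97 FPKM in ZnO 1, 2 and 3. PSAP, which encodes the precursor of lysosomal saposins, stood at 280.0, 352 and 176 FPKM in control 1, 2 and 3, and at 346, 199 and 297 FPKM in ZnO 1, 2 and 3. GJB6, a gap junction gene, differed 1.94-fold between its highest and lowest library, and FAM110D only 1.15-fold. These genes were named by their likeness to the secreted members, so the likeness is a description.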
